A study of Mus musculus with 6 samples.

Results

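The mitoribosome is the ribosome of the mitochondrial matrix, and its protein-coding parts are made by nuclear genes. These were taken as the protein-coding genes of the GENCODE M21 annotation whose symbol is Mrpl or Mrps followed by a number: 78 of the 54532 gene IDs in the deposited table, 49 named for the large subunit and 29 for the small. Each of the 78 symbols had 1 ID. The filter for testing, a mean FPKM of 0.5 or more across the 6 libraries, was passed by 77 of them. RNA came from heart ventricles of mouse embryos at day E12.5, in 3 libraries titled LSD1CKO with the genotype label LSD1-KO (here LSD1-CKO) and 3 control libraries with the genotype label CTL. Kdm1a encodes LSD1, a histone demethylase that acts with the CoREST complex. The labels name no Cre driver, no floxed allele, no genotype detail of the controls and no strain, and they leave unsaid how many embryos or litters stand behind a library, so p-values measure the spread between these libraries, which may be technical in part.

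Each mitoribosome joins a large subunit, which holds the peptidyl transferase centre, to a small subunit, which holds the mRNA and the decoding centre. Both are built on ribosomal RNAs transcribed from mitochondrial DNA (mt-Rnr1 in the small and mt-Rnr2 in the large subunit), and they translate the mitochondrially encoded subunits of the respiratory chain and of ATP synthase. Many of the proteins have homologues in the bacterial ribosome, while others are part of the ribosome only in mitochondria. In people, inherited defects of several of them, among them MRPL3, MRPL44 and MRPS22, cause mitochondrial disease with cardiomyopathy, and the heart depends heavily on respiration after birth.

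The libraries held between 17898947 and 20076028 reads, recovered from the steps of the FPKM values (fragments per length of gene and per library total). Kdm1a was at 10.7, 11.8 and 10.96 FPKM in the LSD1-CKO libraries, against 29.99, 29.7 and 22.8 FPKM in the control libraries, so the groups did not overlap (log2 change -1.22, SE 0.11, limma adjusted p = 0.0027). The labels do not say which exons or which cells carry the deletion, so where the remaining Kdm1a RNA comes from was not tested. The cardiomyocyte genes Myl2, Myl3, Myh7, Myh6, Tnnt2, Actn2, Actc1, Nkx2-5 and Irx4 were all detected. Their summed level was 13070 to 14497 FPKM in LSD1-CKO and 11743 to 15340 FPKM in control libraries. In all, 3 libraries stood apart from their groups. LSD1-CKO replicate 3 had 12.1 FPKM of Xist and none of the Y-linked Ddx3y, LSD1-CKO replicate 1 had 1.11 FPKM of Xist beside 14.3 FPKM of Ddx3y, and control replicate 3 lay at -20.7 on the second principal component, outside the range of -5.68 to 10.98 of the others. Results are therefore also given with single libraries left out.

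The start regions of these genes come before the values, because the genes share features there that their symbols do not show. RefSeq windows of 300 bases, from 250 before to 50 after an annotated start (GRCm38.p6), were found for 69 of the 78 genes. The motifs searched, each on both strands and each counted whether or not another overlapped it, were GCGCA followed by any base and GCGC for NRF1, CCGGAAG for ETS factors such as GABPA, AAGATGGC for YY1, and CACGTG, the E-box read by MYC-family factors. NRF1 and GABPA are known activators of nuclear genes for mitochondrial proteins. The NRF1 motif stood in 13 of the 69 genes (18.8%), beside 11.6% of 9664 protein-coding genes tested here and 5.19% of all 27025 genes in the promoter table. The ETS motif stood in 26 genes (37.7%), beside 20.2% of those tested and 9.93% of all in the table. The YY1 motif stood in 12 genes (17.4%), beside 5.23% and 3.19%, whereas the E-box stood in 5 (7.25%), beside 11.8% and 8.09%. At least 1 of the NRF1, ETS and YY1 motifs was present in 43 of the 69 genes (62.3%), and in 32.5% of the protein-coding genes tested. These shares are a description without a test, and a match of letters is not evidence of binding.

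The following windows show 3 kinds of match, from 120 bases before to 30 after the start, 5′ to 3′ on the strand of the gene, with motif letters in capitals. Mrpl14 at chr17:45686229-45686378 (+), Mrpl9 at chr3:94443216-94443365 (+) and Mrpl12 at chr11:120484517-120484666 (+) hold the NRF1 letters, Mrpl12 on the opposite strand, and are among the 4 large-subunit genes with the smallest p below. The NRF1 letters also stand in members with smaller changes, such as Mrpl17 (log2 change -0.023) and Mrpl44 (-0.087). They are absent from the windows of others, such as Mrpl41 (-0.26) and Mrpl47 (-0.25). Mrps22 at chr9:98601650-98601799 (-) and Mrpl3 at chr9:105053148-105053297 (+) hold the ETS letters and are linked to human cardiomyopathy. Mrps11 at chr7:78783011-78783160 (+) holds the YY1 letters on the opposite strand and lies head to head with Mrpl46, so that 1 short region starts a gene of each subunit.
Mrpl14: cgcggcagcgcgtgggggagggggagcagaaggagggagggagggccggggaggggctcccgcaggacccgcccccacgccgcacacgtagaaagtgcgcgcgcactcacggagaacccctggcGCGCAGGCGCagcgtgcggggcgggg
Mrpl9: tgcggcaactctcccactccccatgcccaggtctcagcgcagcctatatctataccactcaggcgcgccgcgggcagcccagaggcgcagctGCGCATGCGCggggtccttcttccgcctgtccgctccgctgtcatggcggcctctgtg
Mrpl12: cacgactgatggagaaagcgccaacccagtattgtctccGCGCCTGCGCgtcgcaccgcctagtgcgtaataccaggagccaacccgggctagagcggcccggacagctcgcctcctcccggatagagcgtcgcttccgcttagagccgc
Mrps22: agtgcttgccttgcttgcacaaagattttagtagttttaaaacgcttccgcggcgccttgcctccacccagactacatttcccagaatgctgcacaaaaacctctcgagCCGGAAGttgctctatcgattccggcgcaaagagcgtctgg
Mrpl3: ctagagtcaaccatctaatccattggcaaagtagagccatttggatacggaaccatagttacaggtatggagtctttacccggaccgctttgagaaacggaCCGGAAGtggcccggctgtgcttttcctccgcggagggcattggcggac
Mrps11: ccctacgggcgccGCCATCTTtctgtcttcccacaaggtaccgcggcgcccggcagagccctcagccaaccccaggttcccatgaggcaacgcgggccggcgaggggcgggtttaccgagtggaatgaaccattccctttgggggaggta

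No mitoribosomal protein gene passed the test, but nearly all of them lay slightly lower in the LSD1-CKO ventricles. On log2(FPKM + 1), limma with Benjamini-Hochberg adjustment over all 14149 genes tested called 0 of 77 members, where it called 2.37% of all genes, 1.91% higher and 0.466% lower. At an unadjusted p under 0.05, 19 members were lower and 0 higher, beside 7.4% of all genes lower and 8.67% higher. The lower count was 2 in TPM, 3 after scaling to the sum without haemoglobin and mitochondrially encoded genes, 13 after quantile normalization and 8 with a sex score (Xist minus Y-linked level) as covariate. Without LSD1-CKO replicate 1, 2 or 3 it was 13, 11 and 9, and without control replicate 1, 2 or 3 it was 10, 27 and 25. The share of all genes at this threshold is given for the deposited scale with all libraries only. The fitted change was below 0 for 75 of 77 members on the deposited scale, and for 69, 62 and 59 of 77 after quantile normalization, after scaling to the sum without haemoglobin and mitochondrially encoded genes, and after rescaling to TPM. Among all genes tested 54.1% were below 0 on the deposited scale, and 62.7% of those with a mean of at least 5 FPKM, a level that every tested member exceeded. The share of all genes tested below 0 was 54.7% after quantile normalization, 37.1% without haemoglobin and mitochondrially encoded genes and 34.4% in TPM. The median log2 change of the members was -0.12 (range -0.35 to 0.11), and the median ratio of mean FPKM was 0.912. The median change was -0.015 over all genes tested and -0.040 over those with a mean of at least 5 FPKM. The groups did not overlap, with each LSD1-CKO library below each control library, for 25 of 77 members (32.5%), beside 10.4% of all genes tested and 13.4% of those at 5 FPKM or more, and for 0 members in the other direction. That count was 16 after quantile normalization, 12 without haemoglobin and mitochondrially encoded genes and 8 in TPM, beside 10.6%, 5.08% and 4.08% of all genes. With LSD1-CKO replicate 1 or control replicate 2 left out, and so fewer libraries to keep apart, it was 38 and 47, beside 17.1% and 16.3% of all genes. In RNA of whole ventricles, fewer cells of a type and less RNA per cell cannot be told apart.

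**Figure D1:**
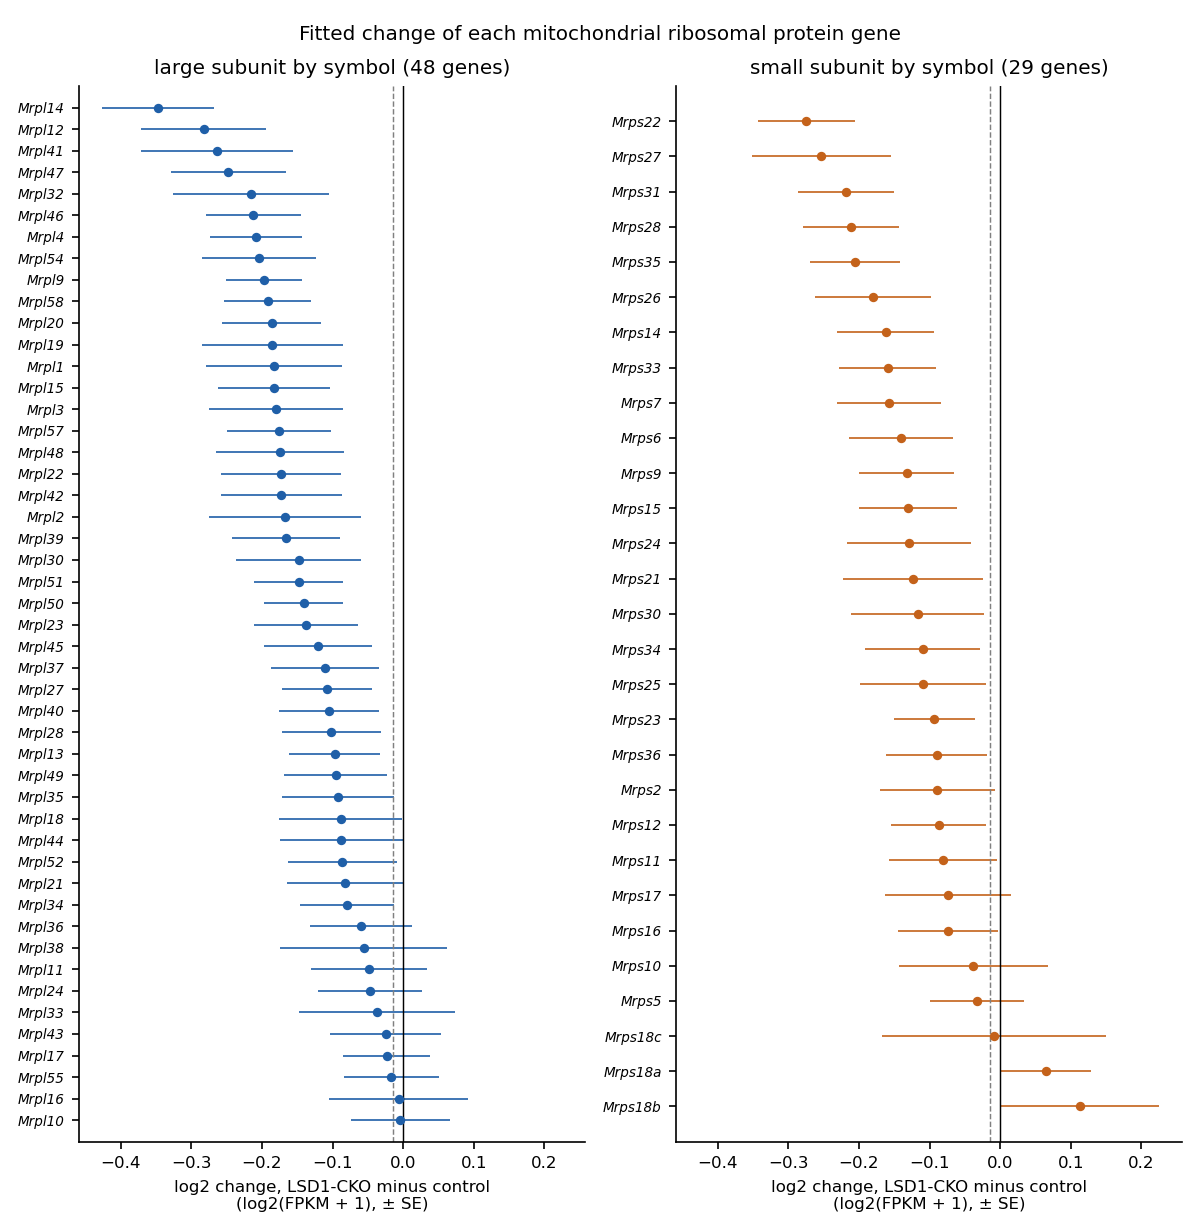
Fitted log2 change (LSD1-CKO minus control, horizontal axis, on log2(FPKM + 1)) of the 48 large-subunit and 29 small-subunit genes tested, each as a point with its SE; the dashed line is the median of all genes tested, -0.015. All but Mrps18a and Mrps18b lie below 0 on the deposited scale, in a range of -0.35 to 0.11. On other scalings more of them lie above 0, and in TPM so do more of all genes tested, whose median there is 0.060.

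The median member lay below the control mean in each LSD1-CKO library, and in 1 of the control libraries. Relative to the mean of the controls, the median member stood at -0.095, -0.13 and -0.16 (log2) in LSD1-CKO replicates 1, 2 and 3, against 0.060, -0.061 and 0.0030 in control replicates 1, 2 and 3. The 2 groups did not overlap in this median, but control replicate 2 lay closer to LSD1-CKO replicate 1 than to control replicate 1. Of the 77 members, 62, 67 and 72 were below the control mean in the LSD1-CKO libraries, against 11, 61 and 35 in the control libraries. Control replicate 1 held the highest value of 46 members, and LSD1-CKO replicate 3 the lowest value of 34. Summed over the members, the level was 2612, 2609 and 2492 FPKM in LSD1-CKO and 2944, 2695 and 2841 FPKM in control libraries, without overlap. As a share of all FPKM it was 0.667%, 0.710% and 0.652% in LSD1-CKO, against 0.726%, 0.694% and 0.683% in control libraries, and there the groups overlapped. Without control replicate 1 the median change of the members was -0.093, and without control replicate 2 it was -0.15.

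**Figure D2:**
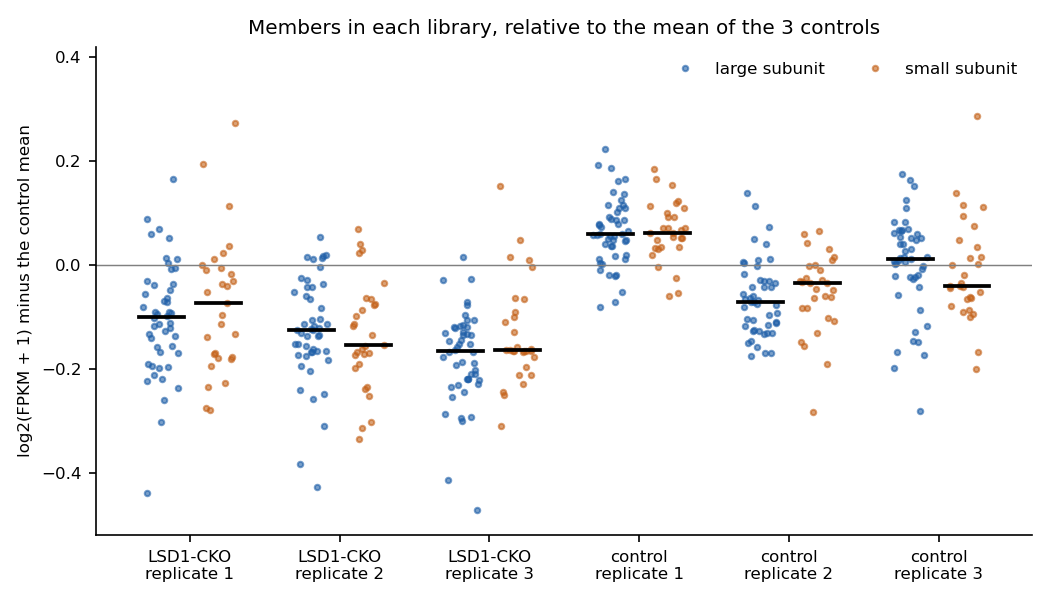
Level of each tested member in each library, as log2(FPKM + 1) minus the mean of the 3 controls (vertical axis), with 1 point per gene, large-subunit genes in blue and small-subunit genes in orange, and a bar at each median. The LSD1-CKO medians over all members are -0.095, -0.13 and -0.16, and the control medians are 0.060, -0.061 and 0.0030.

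The large and the small subunit did not part from each other beyond the spread between libraries. The median log2 change was -0.14 over the 48 large-subunit genes and -0.12 over the 29 small-subunit genes, a difference of -0.022, where the library-to-library SD of that difference was 0.037. The proteins Mrps30 and Mrps18a, though named for the small subunit, sit in the large one, and Mrps36 is a subunit of the oxoglutarate dehydrogenase complex rather than of the ribosome. With the genes assigned by structure the medians were -0.13 and -0.13, a difference of -0.0023. Without control replicate 1 the difference had the other sign, 0.0043. The ratio of summed large-subunit to summed small-subunit FPKM was 2.29, 2.29 and 2.24 in LSD1-CKO and 2.30, 2.29 and 2.27 in control libraries, and the groups overlapped. On the deposited scale an unadjusted p under 0.05 was reached by 13 large-subunit and 6 small-subunit genes, all lower in LSD1-CKO, beside 7.4% of all genes tested; over both subunits the count was 19 there, 2 in TPM and 3 without haemoglobin and mitochondrially encoded genes. No p was computed for the subunit difference.

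The large-subunit genes with the smallest p were Mrpl14, Mrpl9, Mrpl4 and Mrpl12, all of them proteins with bacterial homologues. Mrpl14 was at 51.7, 53.8 and 60.4 FPKM in LSD1-CKO libraries, against 71.1, 66.6 and 73.9 FPKM in control libraries. Every LSD1-CKO value was below every control value, the ratio of means was 0.784, and the log2 change of -0.35 (SE 0.079, 95% interval -0.53 to -0.16) had a limma adjusted p of 0.079; 11.2% of its exon bases lie under Tmem63b. Mrpl9 was at 23.2, 23.2 and 23.1 FPKM in LSD1-CKO, against 26.8, 26.7 and 26.7 FPKM in control libraries. The replicates of each group were almost equal and the groups stood apart, yet the change was small (ratio 0.868, log2 change -0.20, SE 0.054, limma adjusted p = 0.127). Mrpl4 was at 30.5, 28.6 and 29.1 FPKM in LSD1-CKO, against 35.0, 35.4 and 32.1 FPKM in control libraries (ratio 0.861, limma adjusted p = 0.174). These genes lie on chromosome 17 from 45686322 to 45698495 (Mrpl14), chromosome 3 from 94443318 to 94451130 (Mrpl9) and chromosome 9 from 21002738 to 21008839 (Mrpl4), all on the plus strand of mm10.

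Mrpl12 belongs to the flexible L7/L12 stalk, which recruits translation factors, and it also binds the mitochondrial RNA polymerase. It was at 77.2, 82.1 and 69.3 FPKM in LSD1-CKO, against 98.0, 84.8 and 95.9 FPKM in control libraries, without overlap (ratio 0.820, log2 change -0.28, SE 0.089, limma adjusted p = 0.174). Its exons overlap the antisense model Gm16755 over 13.1% of their bases. Mrpl10, the protein that anchors Mrpl12 in the stalk, had 36.3, 34.5 and 31.3 FPKM in LSD1-CKO and 34.5, 33.4 and 34.3 FPKM in control libraries, and its groups overlapped, with 14.1% of its exon bases under Gm11574 (log2 change -0.0038, 95% interval -0.17 to 0.16). Mrpl11, at the base of the stalk, had a log2 change of -0.048 (95% interval -0.24 to 0.14). Whether the 3 stalk genes differ from each other in their change was not tested.

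Genes around the peptidyl transferase centre gave 0 calls, where 2.37% of all genes tested were called. Mrpl3 was at 16.3, 14.5 and 14.8 FPKM in LSD1-CKO, against 19.5, 17.4 and 15.3 FPKM in control libraries, with control replicate 3 inside the LSD1-CKO range (log2 change -0.18, SE 0.095, limma adjusted p = 0.396). Mrpl2 averaged 58.1 ± 5.15 FPKM in LSD1-CKO and 65.6 ± 8.54 FPKM in control libraries (SD, n = 3 each). Mrpl16 averaged 59.0 ± 0.851 FPKM in LSD1-CKO and 59.6 ± 8.06 FPKM in control libraries, and Mrpl27 averaged 46.6 ± 1.92 FPKM in LSD1-CKO and 50.3 ± 2.05 FPKM in control libraries (SD, n = 3 each). At the exit of the peptide tunnel, Mrpl45, which holds the ribosome to the inner membrane, averaged 30.5 ± 1.66 FPKM in LSD1-CKO and 33.3 ± 2.41 FPKM in control libraries. Mrpl47, the counterpart of bacterial L29, was at 8.80, 8.75 and 10.04 FPKM in LSD1-CKO, against 11.8, 10.3 and 11.2 FPKM in control libraries. Its groups did not overlap, though 24.2% of its exon bases lie under Actl6a and Ndufb5 (log2 change -0.25, SE 0.081, limma adjusted p = 0.191).

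Among large-subunit proteins that the bacterial ribosome lacks, Mrpl46 of the central protuberance and Mrpl58, a peptidyl-tRNA hydrolase built into the ribosome, also had groups that did not overlap. Mrpl46 was at 25.9, 28.04 and 24.5 FPKM in LSD1-CKO, against 29.9, 30.6 and 30.6 FPKM in control libraries (limma adjusted p = 0.178), and 12.2% of its exon bases lie under Mrps11. Mrpl58 was at 18.7, 19.1 and 18.5 FPKM in LSD1-CKO, against 22.3, 20.4 and 22.0 FPKM in control libraries (limma adjusted p = 0.183). Mrpl44, a member of the RNase III family in structure, was at 27.2, 25.8 and 29.6 FPKM in LSD1-CKO and 29.1, 32.3 and 26.7 FPKM in control libraries, with overlap (log2 change -0.087, SE 0.087). Over both subunits by structure, 46 proteins with a homologue in the bacterial ribosome had a median log2 change of -0.12 and 30 specific to the mitochondrial ribosome one of -0.14. On the deposited scale each LSD1-CKO library lay below each control library for 12 of the 46 and for 13 of the 30. Among all genes tested 10.4% did so. The total of 25 members fell to 12 without haemoglobin and mitochondrially encoded genes and to 8 in TPM. All genes gave 5.08% and 4.08% on those scalings. Whether the 46 and the 30 differ in this was not tested.

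In the small subunit the smallest p-values belonged to Mrps22, Mrps35, Mrps31 and Mrps28. Mrps22, specific to mitochondria, was at 12.9, 11.5 and 11.7 FPKM in LSD1-CKO, against 15.3, 14.8 and 14.2 FPKM in control libraries. The groups stood apart, the LSD1-CKO mean was 0.815 of the control mean, and the fitted log2 change was -0.28 (95% interval -0.43 to -0.12, SE 0.069, limma adjusted p = 0.101), and no other gene overlaps its exons on chromosome 9 from 98588730 to 98601660. Mrps35 was at 7.11, 6.76 and 6.88 FPKM in LSD1-CKO, against 8.53, 7.95 and 7.92 FPKM in control libraries (ratio 0.851, limma adjusted p = 0.171). Mrps31 was at 13.8, 12.51 and 14.0 FPKM in LSD1-CKO, against 16.4, 15.4 and 15.6 FPKM in control libraries (ratio 0.852, limma adjusted p = 0.172). Both are also specific to mitochondria, and in neither did the groups overlap. Mrps28, counted here with the bacterial homologues, was at 64.8, 68.8 and 69.9 FPKM in LSD1-CKO, against 80.6, 74.2 and 81.4 FPKM in control libraries (ratio 0.862, limma adjusted p = 0.181). Mrps12, the protein that sets decoding accuracy in bacteria, averaged 44.5 ± 2.39 FPKM in LSD1-CKO and 47.3 ± 1.98 FPKM in control libraries (SD, n = 3 each), with overlap.

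**Figure D3:**
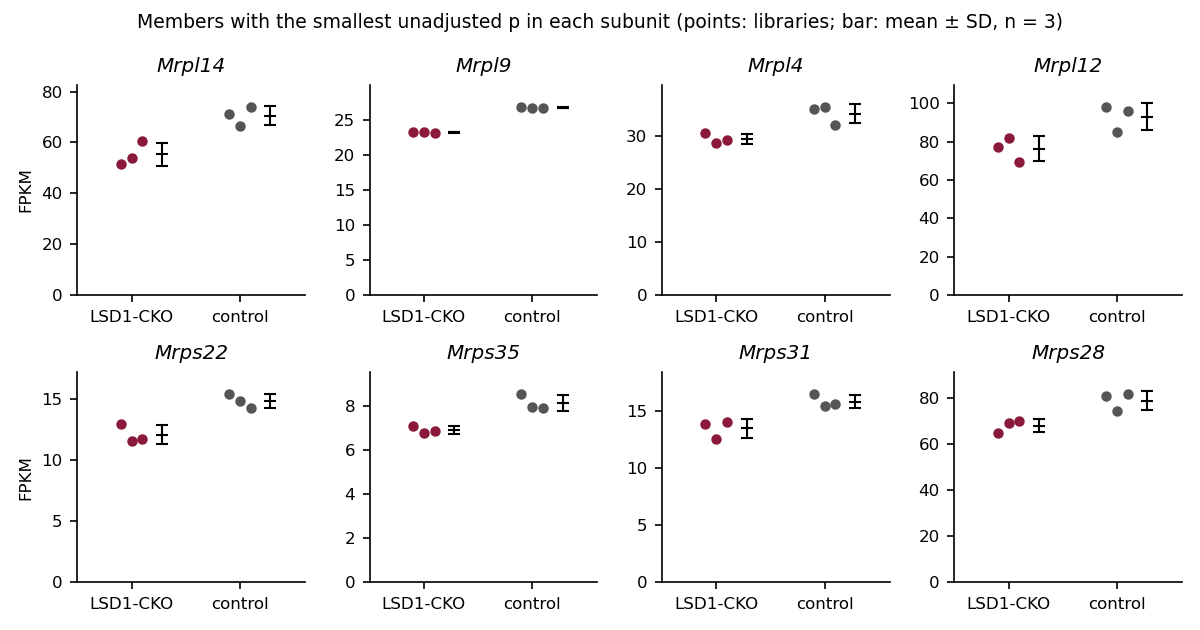
FPKM (vertical axes, from 0) of the 4 large-subunit and 4 small-subunit genes with the smallest unadjusted p, with 1 point per library and the mean ± SD beside them. In all 8 genes each LSD1-CKO library lies below each control library, with ratios between 0.784 (Mrpl14) and 0.868 (Mrpl9), and none passed the adjusted threshold.

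On the deposited scale only Mrps18b and Mrps18a had fitted changes above 0. Mrps18b was at 10.8, 8.16 and 9.81 FPKM in LSD1-CKO and 9.91, 8.07 and 8.31 FPKM in control libraries, with overlap (log2 change 0.11, SE 0.11, 95% interval -0.15 to 0.37). Exons of the opposite-strand model Gm16279 cover 30.5% of its exon bases, and strand was not kept by the library kit. Mrps18a, which has its place in the large subunit, was at 15.1, 14.6 and 14.0 FPKM in LSD1-CKO and 14.7, 13.6 and 13.5 FPKM in control libraries (log2 change 0.065, SE 0.065). Mrps30 averaged 5.42 ± 0.390 FPKM in LSD1-CKO and 5.98 ± 0.711 FPKM in control libraries, and Mrps36 averaged 44.5 ± 2.13 FPKM in LSD1-CKO and 47.4 ± 2.98 FPKM in control libraries (SD, n = 3 each).

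Levels of the members differed far more between genes than between groups. FPKM here divides by the whole annotated exon length of a gene, so differences between genes depend on that length as well. It was 7326 bases for Mrpl33 and 607 for Mrpl34, with at least 959 and 1589 reads in each library. The 77 genes ranged from 5.44 to 148 FPKM over all libraries with a median of 27.2. The median was 31.3 FPKM for the large and 19.9 FPKM for the small subunit by symbol. The highest were Mrpl34, with 144 ± 5.39 FPKM in LSD1-CKO and 152 ± 5.61 FPKM in control libraries, Mrps21, with 124 ± 11.98 FPKM in LSD1-CKO and 135 ± 12.45 FPKM in control libraries, and Mrpl54, with 108 ± 6.08 FPKM in LSD1-CKO and 124 ± 9.60 FPKM in control libraries (SD, n = 3 each). Second in the small subunit was Mrps28, given above. The lowest tested were Mrps10, with 5.35 ± 0.512 FPKM in LSD1-CKO and 5.53 ± 0.749 FPKM in control libraries, and Mrps30, given above. In the large subunit the lowest were Mrpl33, with 8.14 ± 1.16 FPKM in LSD1-CKO and 8.36 ± 0.949 FPKM in control libraries, and Mrpl1, with 7.71 ± 0.777 FPKM in LSD1-CKO and 8.89 ± 0.944 FPKM in control libraries (SD, n = 3 each). In each of these 4 low genes the groups overlapped. The lowest read count of any tested member in any library was 300. Across the 77 members, which are not independent replicates, Pearson's r between mean log2 level and log2 change was -0.093.

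Mrpl53 was the 1 gene left out of the test, because it is listed at 0 in all 6 libraries. Exons of Gm42688 on the same strand and of Ccdc142os on the other cover 88.0% of its exon bases, and how reads shared by genes were counted is not given in the sources used. Exons of other genes cover 10% or more of 17 tested members, up to 77.8% in Mrps34 and 69.8% in Mrps25. The median log2 change was -0.13 for those 17 and -0.12 for the other 60.

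Many members lie close to the start of another gene. For 33 of the 78 (42.3%) a protein-coding gene on the other strand started within 1000 bases, apart or overlapping at the starts, beside 15.9% of 12288 protein-coding genes tested. Several of these neighbours also make mitochondrial proteins: Ndufs6 beside Mrpl36 and Ndufb5 beside Mrpl47 encode complex I subunits, Twnk beside Mrpl43 the mitochondrial DNA helicase, and Sars2 beside Mrps12 a mitochondrial seryl-tRNA synthetase. Ndufs6 averaged 123 ± 23.4 FPKM in LSD1-CKO and 142 ± 10.1 FPKM in control libraries, and Ndufb5 averaged 47.4 ± 4.71 FPKM in LSD1-CKO and 53.2 ± 3.89 FPKM in control libraries (SD, n = 3 each). Of the 28 tested neighbours that are no members themselves, 0 were called, beside 2.37% of all genes tested. A fitted change below 0 was found for 21 of them (75%), beside 54.1% of all genes tested. The median log2 change of the 28 was -0.058. Mrpl46 and Mrps11 are each other's neighbours, with log2 changes of -0.21 and -0.081.

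**Figure D4:**
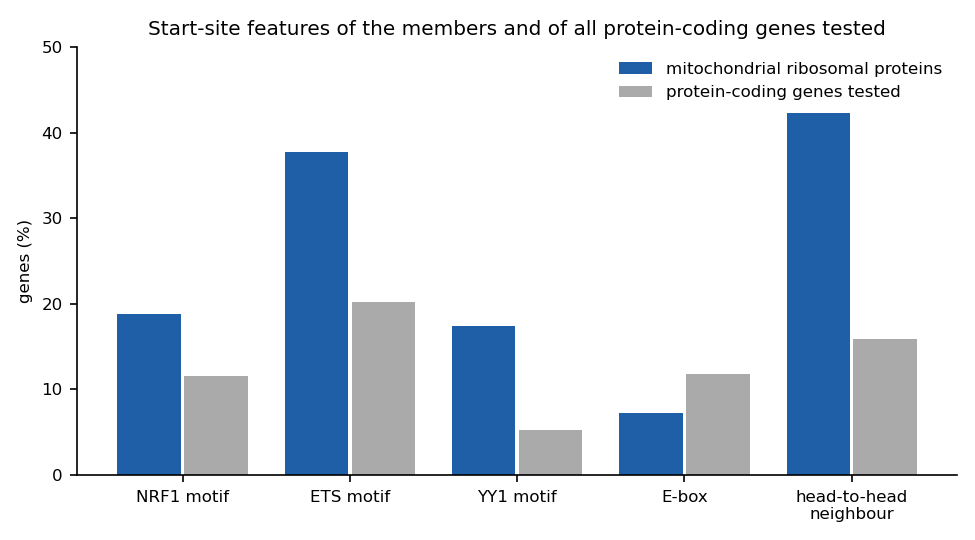
Share of genes (vertical axis, %) whose RefSeq promoter window holds each motif, for the 69 mitoribosomal protein genes with a window and the 9664 protein-coding genes tested, and share with a head-to-head neighbour within 1000 bases, for 78 members and 12288 genes. The ETS motif stands in 37.7% against 20.2%, the YY1 motif in 17.4% against 5.23%, and a head-to-head neighbour in 42.3% against 15.9%.

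Motif content and change were set side by side without a test. The 13 members with the NRF1 motif had a median log2 change of -0.17 and the 55 without it one of -0.10. For the ETS motif the medians were -0.093 with it (25 members) and -0.13 without it (43), and for the YY1 motif -0.10 (12) and -0.12 (56). The factors that are known to read these motifs gave 0 calls, where 2.37% of all genes tested were called. Nrf1 averaged 3.42 ± 0.156 FPKM in LSD1-CKO and 3.39 ± 0.168 FPKM in control libraries, Gabpa averaged 14.4 ± 0.514 FPKM in LSD1-CKO and 14.1 ± 0.732 FPKM in control libraries, and Yy1 averaged 18.5 ± 0.335 FPKM in LSD1-CKO and 19.5 ± 1.012 FPKM in control libraries (SD, n = 3 each). Of the 9 regulators listed, the smallest p-values were those of Ppargc1b, a coactivator of mitochondrial biogenesis (limma adjusted p = 0.477), and Mycn, a MYC-family factor of growing embryonic tissue (limma adjusted p = 0.496). Mycn was at 16.7, 18.9 and 15.7 FPKM in LSD1-CKO, against 23.5, 24.4 and 15.2 FPKM in control libraries, and control replicate 3 was the lowest of all.

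The rest of the mitochondrial translation apparatus also gave 0 calls, where 2.37% of all genes tested were called. On the deposited scale 54.1% of all genes tested, and 62.7% of those with a mean of at least 5 FPKM, were below 0. The 5 ribosomal proteins with other symbols (Dap3, Chchd1, Aurkaip1, Ptcd3 and Gadd45gip1) were all below 0, with a median log2 change of -0.12. Aurkaip1 averaged 54.6 ± 1.99 FPKM in LSD1-CKO and 60.8 ± 3.08 FPKM in control libraries, and Ptcd3, which binds mRNA at its entry, averaged 15.1 ± 1.23 FPKM in LSD1-CKO and 17.1 ± 1.23 FPKM in control libraries (SD, n = 3 each). Of 27 assembly and rRNA modification factors 22 were below 0 (median -0.11), with the smallest p-values for Mrm3, a methyltransferase of the large ribosomal RNA, and Mpv17l2. Mrm3 averaged 6.25 ± 0.151 FPKM in LSD1-CKO and 7.60 ± 0.624 FPKM in control libraries (SD, n = 3 each; limma adjusted p = 0.161). Mpv17l2 averaged 14.5 ± 1.21 FPKM in LSD1-CKO and 17.9 ± 1.64 FPKM in control libraries (SD, n = 3 each; limma adjusted p = 0.167). Of 12 translation factors 10 were below 0 (median -0.13), led by the release factor Mtrf1l (limma adjusted p = 0.248) and by Gfm2, which splits the ribosome for recycling (limma adjusted p = 0.281). Of 17 mitochondrial aminoacyl-tRNA synthetases 13 were below 0 (median -0.091), led by Yars2 (limma adjusted p = 0.214) and Pars2 (limma adjusted p = 0.264). Of 15 tested genes of mitochondrial transcription and RNA handling all 15 were below 0 on the deposited scale (median -0.15), led by Hsd17b10, a subunit of mitochondrial RNase P (limma adjusted p = 0.203), and Tfam, the packaging and transcription factor of mitochondrial DNA (limma adjusted p = 0.251).

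Reads of the ribosomal RNAs of the 2 subunits were listed as well. How much of these RNAs the library preparation kept was not measured, so the values need not follow their levels in the ventricles. For mt-Rnr1, the small-subunit RNA, the levels were 494, 345 and 463 FPKM in LSD1-CKO, against 587, 580 and 715 FPKM in control libraries, without overlap (log2 change -0.54, SE 0.15, limma adjusted p = 0.132). For mt-Rnr2, the large-subunit RNA, they were 531, 302 and 565 FPKM in LSD1-CKO, against 643, 588 and 853 FPKM in control libraries, also without overlap (log2 change -0.61, SE 0.25, limma adjusted p = 0.283). All mitochondrially encoded genes together took 7.10%, 4.64% and 6.86% of the FPKM in LSD1-CKO and 6.81%, 6.09% and 9.03% in control libraries. Their part in the values of the nuclear genes was not tested.

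Other gene groups of large complexes lay lower too, and nothing here is shown to be particular to the mitoribosome. On the deposited scale the median log2 change was -0.20 over 83 nuclear genes of oxidative phosphorylation, with 1 called higher and 0 lower, and -0.20 over 83 cytoplasmic ribosomal protein genes, with 0 higher and 1 lower. Over all genes tested 1.91% were called higher and 0.466% lower. In TPM those medians were -0.11 and -0.12, beside -0.060 for the large and -0.040 for the small mitoribosomal subunit, while the median of all genes tested moved to 0.060. Relative to all genes tested, the members lay at -0.11 on the deposited scale and in TPM, at -0.099 without haemoglobin and mitochondrially encoded genes and at -0.070 after quantile normalization. Differences between these groups were not tested.

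**Figure D5:**
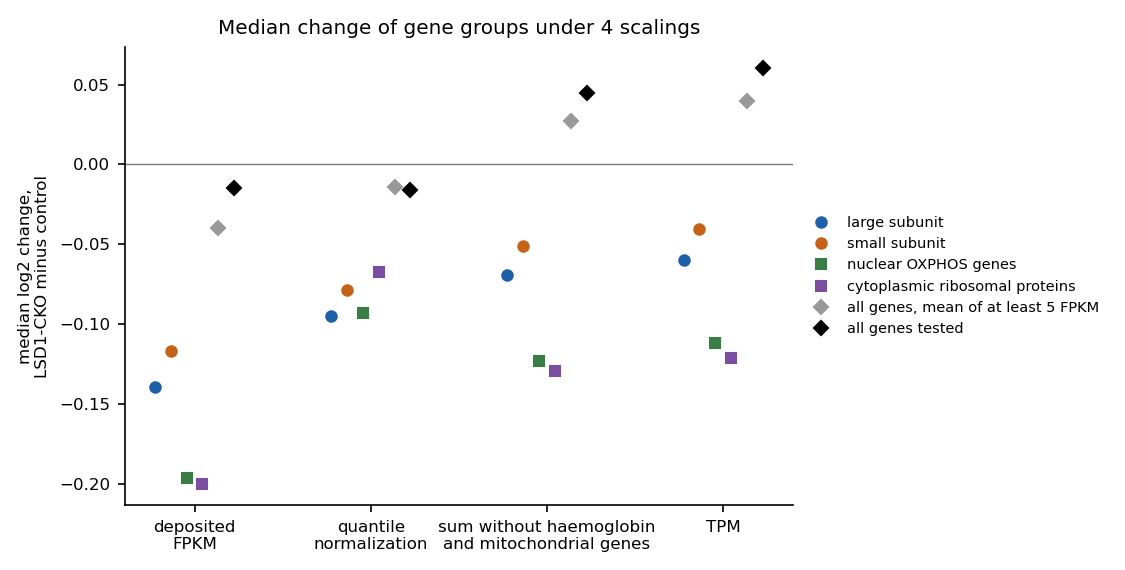
Median log2 change (vertical axis, LSD1-CKO minus control) of both mitoribosomal subunits, nuclear oxidative phosphorylation (OXPHOS) genes, cytoplasmic ribosomal protein genes and all genes, under the deposited scale and 3 other scalings (horizontal axis). The large subunit lies at -0.14 on the deposited scale and at -0.060 in TPM, where the median of all genes tested is 0.060.

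Markers of the cells a ventricle holds were summed for comparison. Endothelial and endocardial markers summed to 140 to 180 FPKM in LSD1-CKO and 117 to 170 FPKM in control libraries, with fitted changes above 0 for 7 of 7 and 0 calls. Epicardial markers summed to 234 to 261 FPKM in LSD1-CKO and 211 to 255 FPKM in control libraries, and macrophage markers to 102 to 116 FPKM in LSD1-CKO and 83.8 to 111 FPKM in control libraries. Neural crest markers summed to 43.4 to 48.6 FPKM in LSD1-CKO and 26.5 to 44.5 FPKM in control libraries, and erythroid markers to 7920 to 16538 FPKM in LSD1-CKO and 8053 to 18024 FPKM in control libraries. Genes listed as atrial markers summed to 2573 to 2962 FPKM in LSD1-CKO and 2288 to 2869 FPKM in control libraries, with 1 of 6 called higher (Nppa, a natriuretic peptide). Fitted changes were above 0 for 4 of the 6. They were below 0 for 2, Sln (log2 change -0.42, limma adjusted p = 0.187) and Myl7 (log2 change -0.080). Most of the sum was Myl7, with means of 2088 FPKM in LSD1-CKO and 2225 FPKM in control libraries, and Nppa, with 700 and 281 FPKM. Whether any of this RNA came from atrial cells was not tested. Liver markers summed to 1.24 to 2.25 FPKM in LSD1-CKO and 0.892 to 1.56 FPKM in control libraries. The 4 tested neural crest markers were all above 0, and of the liver markers Fgb was listed at 0 in every library. Apart from Nppa, 0 genes of these lists were called, where 2.37% of all genes tested were called and 54.1% had a fitted change below 0. The part of cell makeup in the members' values was not tested.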

How the data were processed

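Total RNA of E12.5 heart ventricles was extracted with TRIzol and made into libraries with a NEBNext Ultra RNA kit, per the labels' protocols; this kit keeps no strand information. The submitters' processing notes give the mm10 build, featureCounts 1.5.0-p3 as counter, HISAT2 2.0.5 as aligner, and fastp and CASAVA, and the annotation release and counting settings are not known from the sources used. What the authors deposited are FPKM values for 54532 Ensembl IDs in 6 libraries.

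Symbols and exon lengths were taken from GENCODE M21 (GRCm38, the assembly of mm10) for 54495 IDs; 37 had none. Multiplied by exon length, the FPKM of a library became whole multiples of 1 value, with 98.1% to 98.5% of values below 30 reads no more than 0.02 from a whole read. The library total behind the FPKM, divided by a median-of-ratios size factor, was nearly the same in all libraries, so the deposited FPKM carry size-factor scaling.

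The 14149 genes whose FPKM averaged 0.5 or more entered a limma 3.58.1 fit of log2(FPKM + 1) (R 4.3.3; mean-variance trend, two-sided, genotype as only term, Benjamini-Hochberg adjusted p under 0.05); this scale understates changes of low genes. The procedure was tested on simulated data. Python 3.11.15 with pandas 2.3.3 and numpy 2.4.6 made the tables, and matplotlib 3.10.9 drew the figures. Alternatives changed the pseudocount, filter, scaling, weights, terms or libraries. Members, lists, role groups and motifs were chosen with earlier results of these data known. Named genes were, per subunit, the 4 smallest p in each direction and the 2 highest and lowest levels, genes linked to cardiomyopathy or misnamed, and up to 2 per other list. Further members (Mrpl2, Mrpl10, Mrpl11, Mrpl16, Mrpl27, Mrpl45, Mrpl46, Mrpl47, Mrpl58, Mrps11 and Mrps12), the neighbours, Nrf1, Gabpa and Yy1 were added for role or position after values were seen.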

Additional observations from a re-analysis of the deposited data

How the results depend on the processing

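Under all 15 other settings of the fit 0 members were called; the smallest adjusted p was 0.055, for Mrps22 with limma array weights. The count of all genes called (336) was 122 without a filter, 180 at a mean of at least 5 FPKM and 116 with the sex score (Xist minus Y-linked level) as covariate. With a library left out it ranged from 134 to 381: 164, 134 and 146 without LSD1-CKO replicates 1, 2 and 3, and 188, 181 and 381 without control replicates 1, 2 and 3. The median of the members was -0.047 in TPM and -0.055 after scaling to the sum without haemoglobin and mitochondrially encoded genes, with the large subunit at -0.060 and -0.069 and the small at -0.040 and -0.051; without a library it was -0.15 to -0.093, the large subunit -0.17 to -0.093, the small -0.14 to -0.093 and their difference -0.037 to 0.0043. On these scales the median of all genes tested was 0.060 and 0.045. Without genes that share 10% or more of their exon bases, chosen after seeing the data, the subunit medians moved by less than the spread between libraries.

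Of 31 members followed one by one, 6 turned sign under some alternative. In TPM these were Mrpl33 (0.040), Mrpl34 (0.0045), Mrps10 (0.037), Mrpl10 (0.079), Mrpl11 (0.034) and Mrpl16 (0.077); after quantile normalization Mrpl34 (0.023), Mrpl10 (0.051) and Mrpl16 (0.046). Without haemoglobin and mitochondrially encoded genes they were Mrpl33 (0.028), Mrps10 (0.024), Mrpl10 (0.067), Mrpl11 (0.022) and Mrpl16 (0.065), and with the sex score Mrpl33 (0.027), Mrpl10 (0.063), Mrpl11 (0.0045) and Mrpl16 (0.0066). With a library left out the ranges were -0.14 to 0.045 for Mrpl33, -0.13 to 0.031 for Mrps10, -0.050 to 0.053 for Mrpl10, -0.11 to 0.014 for Mrpl11 and -0.11 to 0.087 for Mrpl16. None of the 6 was called, and the cause was not tested. Among members not followed, the range over settings also crossed 0 for Mrps18c (-0.15 to 0.13), Mrpl17, Mrpl24, Mrpl36, Mrpl38, Mrpl43, Mrpl55, Mrps5, Mrps16 and Mrps17.

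Same-numbered libraries share only a number: their deviations correlated at -0.0021, 0.14 and 0.16. With the replicate number as a block, 284 genes and 0 members were called.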

Other observations

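Processed pseudogenes named after members, which belong to no comparison above, had low levels. Mrpl23-ps1 was listed at 4.29, 2.93 and 3.57 FPKM in LSD1-CKO and 2.90, 2.42 and 3.22 FPKM in control libraries, and Mrpl48-ps at 1.74, 2.84 and 2.55 FPKM in LSD1-CKO and 2.56, 3.36 and 3.01 FPKM in control libraries. How many reads of Mrpl23 or Mrpl48 these copies share was not measured. The 78 members lie on 17 chromosomes, with the highest numbers on chromosome 11 (11 genes) and chromosome 17 (8 genes).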
